A study of Mus musculus with 8 samples.

Results

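Potassium channel genes were taken as every gene of the deposited results table whose symbol begins with Kcn, which gave 58 of 10601 genes. They comprise 49 pore-forming subunits, 8 auxiliary subunits and the non-coding RNA Kcnq1ot1, whose symbol carries the same letters although its product is not a channel. Membership was set by symbol alone, but the set was chosen with earlier results of these data known. The table itself holds only genes that passed the study's threshold on read number, and 7 of the 14 K2P genes and 9 of the 15 Kir genes listed for this work were in it. Each gene was joined to the table of expression values by its transcript identifier, and all 58 were among the 10588 genes tested, which had at least 10 RPM (10 reads in each 1 M of a mouse's column) in 1 mouse or more.

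Poly(A)+ RNA was sequenced from the right cortex of 4 bigenic mice and 4 nontransgenic mice of the C57BL/6 strain, and the comparison asked how gene expression differed between them. Per the study's methods each group held mice of both sexes, and the column names do not give the sex. Bigenic mice carried Camk2a-tTa and deltaNLS-hTDP-43, a human TDP-43 whose nuclear localization signal is defective and which is expressed in the absence of doxycycline. Doxycycline was withdrawn at 28 days of age and tissue was taken 10 days later, and the nontransgenic mice followed the same diet schedule. The Camk2a promoter drives the transgene mainly in forebrain excitatory neurons, whereas the RNA came from whole cortex, so that fewer cells of a type and less RNA per cell cannot be told apart in any value given here.

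Potassium channels let potassium ions leave the cell along their gradient and so set the resting potential of neurons, end each action potential and limit how fast the next can follow. Voltage-gated (Kv), calcium-activated, inwardly rectifying (Kir) and 2-pore-domain (K2P) channels are built from pore-forming subunits that come together as tetramers or, in the K2P family, dimers, and auxiliary subunits change their gating and their delivery to the membrane. Neurons combine members of these families differently in dendrites, cell bodies and axons, and astrocytes use Kir channels to take up the potassium that active neurons release.

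Values are given as the authors' normalized counts, whole numbers obtained by scaling the reads of each mouse, and in the order of the deposited columns for each group. Between 10.6 M and 31.9 M reads per mouse lay on genes, and 3 reads corresponded to 1.94 to 6.20 normalized counts, against a lowest value of 76 for any potassium channel gene in any mouse. The second bigenic mouse, which also had the fewest reads, lay apart from the other 7 on the first 2 principal components of all genes tested, at -46.0 and -22.3 against -12.8 to -15.1 and 15.0 to 15.9 for the other bigenic mice. It was the highest or lowest bigenic mouse for 41 of the 58 genes. For any gene 2 of the 4 bigenic mice hold these places, and the share over all genes is not given. Mouse Tardbp was 5212, 4908, 5502 and 5098 in bigenic mice and 6416, 6116, 6502 and 7116 in nontransgenic mice. The groups did not overlap and Tardbp was lower in bigenic mice, with a log2(fold change) of -0.33 ± 0.073 (SE, n = 4 per group) and an adjusted p = 0.00645 by limma. The human transgene itself was not analysed here.

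Of the 58 potassium channel genes, 30 (51.7%) changed at an adjusted p-value below 0.05 (limma on log2(normalized count + 1), Benjamini-Hochberg adjustment over all 10588 genes), beside 35.9% of all genes tested. Expression rose in bigenic mice for 17 of them (29.3%, against 20.5% of all genes) and fell for 13 (22.4%, against 15.4%). All 8 mice separated by group, with every bigenic value above or every one below the nontransgenic values, for 29 genes (50.0%, against 39.0% of all genes), 17 of them higher (22.3% of all genes) and 12 lower (16.7% of all genes). The median log2(fold change) of the 58 genes was -0.03 beside 0.03 for all genes, and the median absolute log2(fold change) was 0.32 beside 0.25. Kcnj12, Kcnk4, Kcnh4, Kcnk10 and Kcnk12 exceeded 10 RPM in mice of 1 group only, so they could enter the test only through the group in which they were high. Among the 51 potassium channel genes that exceeded 10 RPM in every mouse, 14 rose and 11 fell (49.0% in all, against 37.7% of the 8980 genes that met this filter, 21.9% higher and 15.8% lower).

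The Kv3, Kir, K2P and EAG/ERG/ELK families each held genes that rose and genes that fell. Genes that rose included 3 of 4 Kv1 genes, 4 of 7 K2P genes and the G protein-gated Kir genes Kcnj3, Kcnj6 and Kcnj9. Genes that fell included 3 of 6 electrically silent Kv genes and 1 of 2 Kv4 genes, Kcnd2. Of the 4 genes for its cytoplasmic KChIP partners, Kcnip4 and Kcnip1 fell and 2 were not called. The Kcnip1 call held in only 2 of the 8 fits that each left out 1 mouse. The genes that changed by at least 2-fold were Kcnk10, Kcnk4 and Kcnab2, of which only Kcnab2 exceeded 10 RPM in every mouse and the others could enter the test only as higher genes. At a change of at least 1.5-fold, 7 genes remained called higher and 5 lower, and the share of all genes at this threshold is not given. Among them, Kcnk4, Kcnk10 and Kcnk12 (higher) and Kcnj12 and Kcnh4 (lower) could enter the test only through the group in which they were high. Without the bigenic mouse that lay apart, 35 genes were called (60.3%, against 45.6% of the 10481 genes then tested), of which 29 were also called with all mice.

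**Figure D1:**
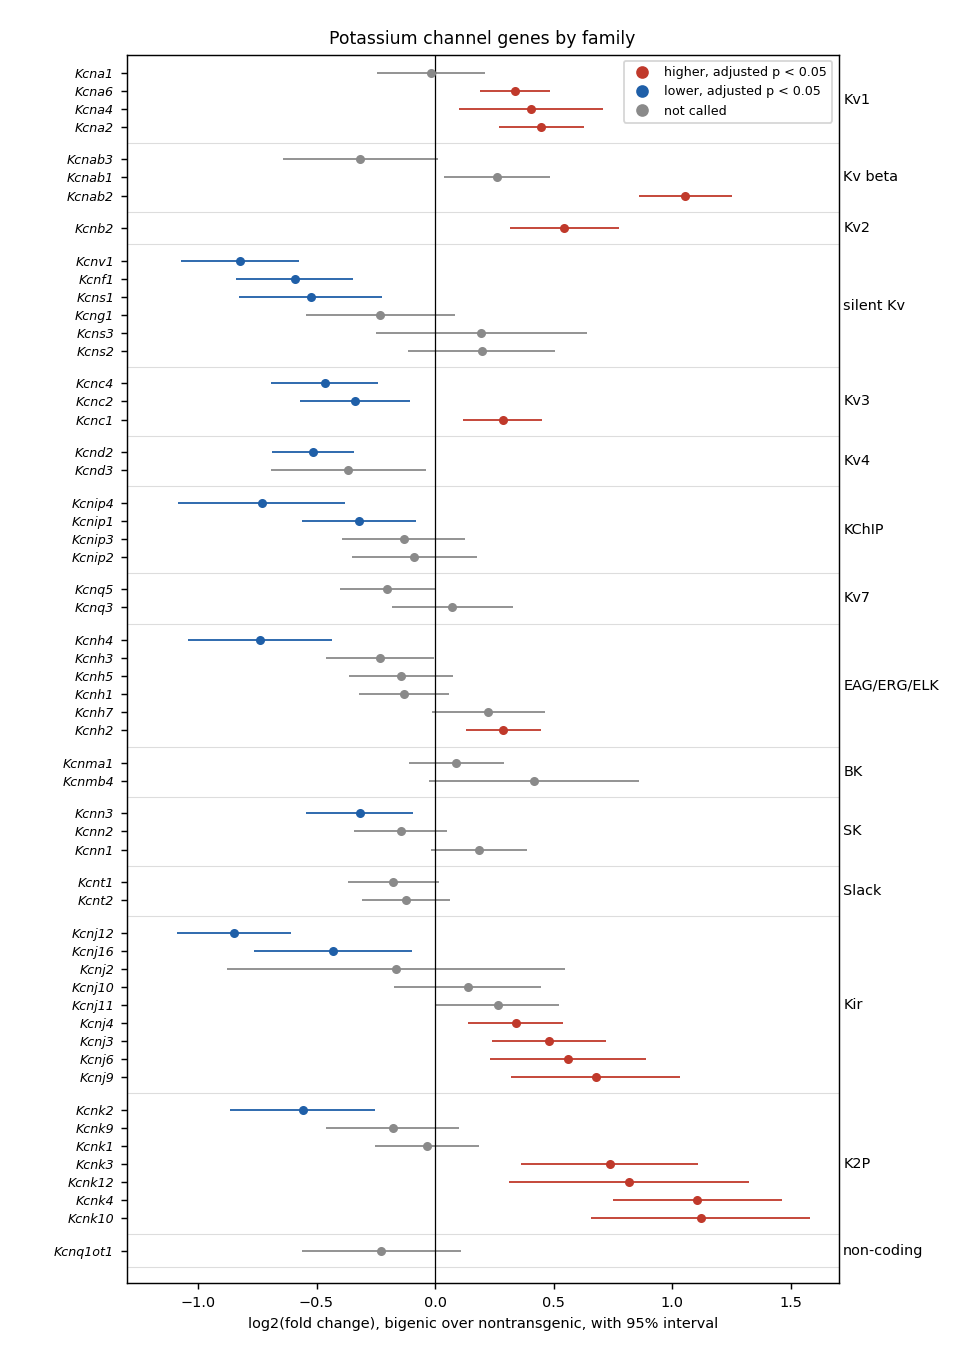
Log2(fold change) of normalized count, bigenic over nontransgenic (x axis), for 55 of the 58 potassium channel genes (y axis), grouped by family; bars are 95% intervals from limma with 4 mice per group. Red points mark genes called higher, blue points genes called lower and grey points genes that were not called; the Kv3, Kir, K2P and EAG/ERG/ELK families each hold both red and blue points.

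Kv1 subunits form low-threshold channels that are concentrated in axons and near the nodes of Ranvier. Of the 4 Kv1 genes, 3 rose and none fell. Kcna2 was 2312, 2808, 2731 and 2809 in bigenic mice and 1990, 1965, 1945 and 1890 in nontransgenic mice. Every bigenic mouse lay above every nontransgenic mouse, and the log2(fold change) was 0.45 ± 0.081 (adjusted p = 0.00249). Kcna6 was 3620, 3948, 3625 and 3695 in bigenic mice and 3059, 2882, 3005 and 2851 in nontransgenic mice, again without overlap. Its log2(fold change) was 0.34 ± 0.067 (adjusted p = 0.00396). Exons of Kcna6 overlap the annotated gene Gm17456 on the opposite strand, and since the sources do not say that reads were assigned by strand, those of the pair cannot be told apart. Kcna4, which gives the Kv1 family its rapidly inactivating current, rose with a log2(fold change) of 0.40 (adjusted p = 0.0427), but 1 bigenic value lay below the highest nontransgenic value and the call was lost without the mouse that lay apart (0.34, adjusted p = 0.0520) and in 4 of the other 7 fits that each left out 1 mouse. Kcna1 had the highest level per length of the family over all mice, although Kcna2 was higher in bigenic mice (771 against 762 normalized counts per kb), and its log2(fold change) was -0.02 with a 95% interval of -0.24 to 0.21.

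Kv beta subunits are cytoplasmic proteins that bind Kv1 channels and assist their transport to the membrane. Kcnab2, which lies on the minus strand at chr4:151764851-151851980 (mm9), showed the smallest adjusted p-value of the 58 genes. Its normalized counts were 9332, 9027, 10429 and 11264 in bigenic mice and 4433, 4760, 5129 and 4911 in nontransgenic mice. The lowest bigenic mouse was far above the highest nontransgenic mouse, a 2.08-fold difference with a log2(fold change) of 1.05 ± 0.088 (adjusted p = 4.15e-05). The annotation also places Gm16334 on the same strand within its exons, and reads of the pair cannot be told apart. Kcnab1 and Kcnab3 were not called, at 0.26 (95% interval 0.04 to 0.48, adjusted p = 0.0667) and -0.32 (-0.64 to 0.01, adjusted p = 0.12). The groups did not overlap for Kcnab1, which was called without the bigenic mouse that lay apart (0.28, adjusted p = 0.0371).

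When normalized counts were divided by the exon length of each gene and summed over a family, the 3 Kv beta genes came to 2346 ± 210 per kb (SD, n = 4) in bigenic mice and 1447 ± 77.2 in nontransgenic mice. Kcnab2 made up 76.5% ± 1.34 of that sum in bigenic mice and 59.6% ± 1.90 in nontransgenic mice. The Kv1 sum was 2320 ± 74.9 per kb against 1947 ± 55.8. For neither family did the sums of the groups overlap, with a ratio of 1.62 for Kv beta and 1.19 for Kv1. These sums and shares describe the families and carry no test.

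Kv2 channels carry the delayed rectifier current of cell bodies and proximal dendrites. Kcnb2 was 756, 734, 919 and 898 in bigenic mice and 627, 538, 579 and 517 in nontransgenic mice. No values overlapped, and Kcnb2 rose with a log2(fold change) of 0.54 ± 0.103 (adjusted p = 0.00320).

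Electrically silent Kv subunits form no channel of their own and instead join Kv2 subunits, whose gating they change. Of 6 silent subunit genes, 3 fell and none rose. Kcnv1 was 2308, 2010, 2527 and 2264 in bigenic mice and 4006, 4226, 4633 and 3324 in nontransgenic mice. All bigenic values were below all nontransgenic values, and nontransgenic mice had 1.77-fold more (log2(fold change) -0.82 ± 0.112, adjusted p = 0.000568). Kcnf1 was 2375, 3228, 2765 and 2848 in bigenic mice against 4596, 3758, 3900 and 4635 in nontransgenic mice. It was also fully separated, with a log2(fold change) of -0.59 ± 0.111 (adjusted p = 0.00293). Kcns1 fell with a log2(fold change) of -0.53 (adjusted p = 0.0141). Kcnf1 and Kcnv1 were the most abundant of the 6 per length in both groups, and the sum of the family was 2238 ± 112.5 per kb in nontransgenic mice and 1541 ± 67.5 in bigenic mice, a ratio of 0.69 that was the lowest of all families.

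Kv3 channels open at high voltage and close quickly, which allows neurons to fire at high rates. Kcnc1 rose, and Kcnc2 and Kcnc4 fell. Their products share the selectivity filter, the short stretch of the pore that lets potassium through in preference to sodium. The coding sequence around it is shown because the subunits that moved in opposite directions are so alike there. Each line gives 30 coding bases read 5′ to 3′ from the NCBIM37 (mm9) genome, with the 15 bases that encode the filter in capitals.
Kcnc1, plus strand, exon 2, chr7:53683337-53683366: atgacgACACTGGGCTATGGAgacatgtat
Kcnc2, plus strand, exon 3, chr10:111893279-111893308: atgactACCTTAGGTTACGGGgatatgtac
Kcnc4, minus strand, exon 2, chr3:107250708-107250737: atgacaACGCTTGGCTATGGGgacatgtat
The window of Kcnc1 matched Kcnc4 at 26 of 30 bases and Kcnc2 at 21. All differences were synonymous. Only reads that mapped to a single place were counted by the authors, and how many reads this removed from the shared stretches was not tested.

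Kcnc4 was 751, 1011, 977 and 967 in bigenic mice and 1234, 1286, 1328 and 1241 in nontransgenic mice. Here every bigenic mouse was lower, with a log2(fold change) of -0.47 ± 0.101 (adjusted p = 0.00607). Kcnc1 rose with a log2(fold change) of 0.29 (adjusted p = 0.0150), a call that was lost once a trend on GC content and length was removed from each mouse (adjusted p = 0.305) or nontransgenic mouse 2 in column order was left out (adjusted p = 0.0504). Kcnc2 fell with a log2(fold change) of -0.34 (adjusted p = 0.0293) and was called in 3 of the 8 fits that left out 1 mouse, with adjusted p-values up to 0.0867, and was lost without bigenic mouse 1 or without any single nontransgenic mouse.

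Kv4 channels carry the A-type current that dampens signals in dendrites, and they work in complex with the calcium-binding KChIP proteins. Kcnd2 was 1903, 1799, 1755 and 1651 in bigenic mice and 2727, 2512, 2592 and 2340 in nontransgenic mice. The ranges were well apart, and Kcnd2 fell with a log2(fold change) of -0.52 ± 0.078 (adjusted p = 0.000957). Kcnd3 was 2469, 1787, 2917 and 2903 against 3470, 3075, 3218 and 3009. Its groups did not overlap either, but its log2(fold change) of -0.37 (95% interval -0.69 to -0.04) had an adjusted p = 0.0747. Without the lowest bigenic mouse, which lay apart, Kcnd3 was called at -0.21 (adjusted p = 0.0468). The 2 Kv4 genes together came to 608 ± 49.0 per kb in bigenic mice and 827 ± 51.9 in nontransgenic mice.

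Of the 4 KChIP genes, 2 fell and none rose. Kcnip4 was 904, 610, 974 and 1046 in bigenic mice and 1562, 1455, 1499 and 1253 in nontransgenic mice. All bigenic mice were lower, with the lowest value in the mouse that lay apart, and the log2(fold change) was -0.73 ± 0.158 (adjusted p = 0.00608), or -0.56 without that mouse. Kcnip1 fell with a log2(fold change) of -0.32 (adjusted p = 0.0425) but was called in only 2 of 8 fits with 1 mouse left out, those without the mouse that lay apart or nontransgenic mouse 4 (adjusted p up to 0.119 in the others). Kcnip3, the second most abundant of the 4 per length in nontransgenic mice and the most abundant over all mice, was at -0.13 (95% interval -0.39 to 0.12).

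Kv7 channels carry the M-current, which is closed by muscarinic receptors. Kcnq3, the most abundant of the family per length, was at 0.07 (95% interval -0.18 to 0.33). Among the EAG, ERG and ELK channels, Kcnh4 was 177, 130, 144 and 159 in bigenic mice and 218, 277, 260 and 263 in nontransgenic mice. Kcnh4 thus fell without overlap, with 1.67-fold more in nontransgenic mice and a log2(fold change) of -0.74 ± 0.136 (adjusted p = 0.00269). Kcnh2, which encodes the ERG channel also known from the heart, rose with a log2(fold change) of 0.29 (adjusted p = 0.0118), a call that ended with the GC content and length trend removed (adjusted p = 0.717). Kcnh3, the most abundant of the family per length, was not called at -0.23 (95% interval -0.46 to -0.00), and without the mouse that lay apart it was called at -0.32 (adjusted p = 0.00537).

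Among calcium- and sodium-activated channels 1 gene was called. Of the 3 SK genes, whose products follow action potentials with a slow hyperpolarization, only Kcnn3 was called, with a log2(fold change) of -0.32 (adjusted p = 0.0335). Its groups overlapped, and it was called in 4 of 8 fits with 1 mouse left out and lost without bigenic mouse 4 or nontransgenic mouse 1, 2 or 4 (adjusted p up to 0.0939). Kcnn2 was at -0.15 (95% interval -0.34 to 0.05). Neither BK gene and neither Slack gene was called. Kcnma1, the pore-forming BK subunit, was at 0.09 (95% interval -0.11 to 0.29), and Kcnt1, a sodium-activated channel, at -0.18 (-0.37 to 0.01). Kcnmb4, the neuronal auxiliary subunit of BK channels, was 1667, 3274, 1650 and 1778 in bigenic mice against 1554, 1353, 1561 and 1538 in nontransgenic mice. The groups did not overlap, yet the log2(fold change) of 0.42 (95% interval -0.03 to 0.86, adjusted p = 0.127) rested on the mouse that lay apart and was 0.18 without it (adjusted p = 0.0572).

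**Figure D2:**
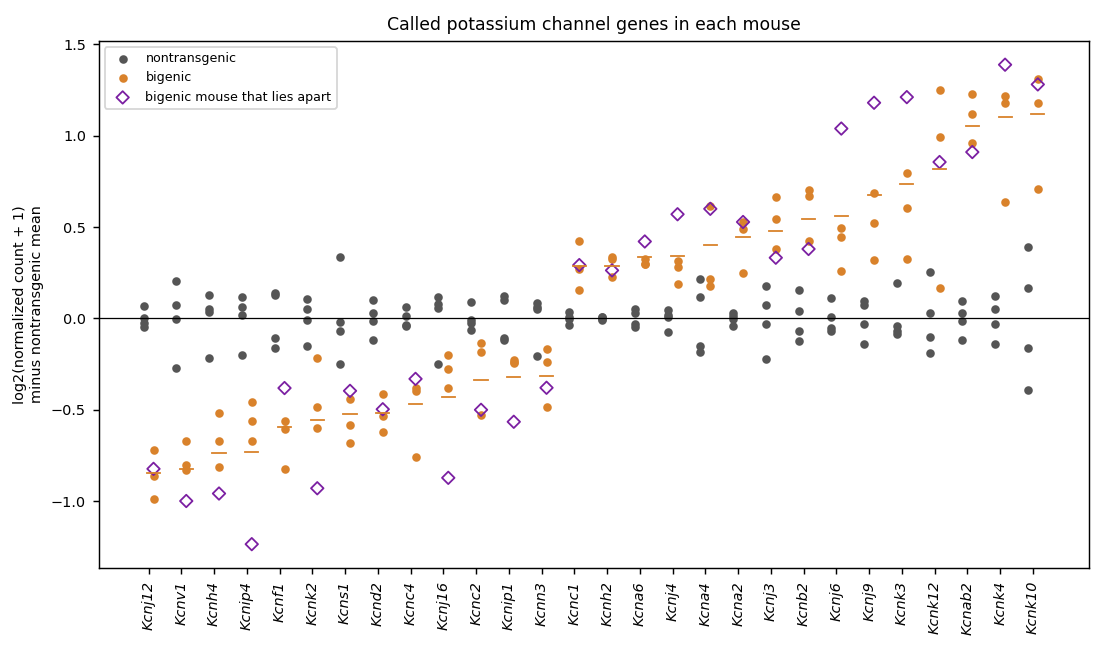
Log2(normalized count + 1) of each mouse minus the nontransgenic mean (y axis) for 28 of the 30 called potassium channel genes, ordered by log2(fold change) (x axis). Grey points are nontransgenic mice, orange points bigenic mice, purple diamonds the bigenic mouse that lay apart, and short lines the bigenic mean; the groups overlap for Kcnk12, Kcnn3, Kcna4 and Kcnj16 and for no other gene drawn.

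Inward rectifiers pass potassium most readily near the resting potential. Of 9 Kir genes, 4 rose and 2 fell, and Kcnj3, Kcnj6 and Kcnj9, which belong to the G protein-gated group that neurotransmitters open through their receptors to silence neurons, rose. The other gene of that group, Kcnj5, was not among the 58. Kcnj3 was 1459, 1410, 1636 and 1773 in bigenic mice and 1266, 1180, 1097 and 959 in nontransgenic mice. The values did not overlap and the log2(fold change) was 0.48 ± 0.108 (adjusted p = 0.00740). Its exons overlap Gm17595 on the opposite strand, and the reads cannot be told apart. Kcnj9 (0.68, adjusted p = 0.00951) and Kcnj6 (0.56, adjusted p = 0.0154) were likewise separate between the groups. Both were highest in the mouse that lay apart, and without it their log2(fold changes) were 0.51 and 0.40, still called.

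The classical strong inward rectifiers Kcnj4 and Kcnj12 moved in opposite directions. Kcnj12 was 133, 149, 160 and 145 in bigenic mice and 265, 256, 277 and 260 in nontransgenic mice. Spread within each group was small, the groups were far apart, and nontransgenic mice had 1.80-fold more (log2(fold change) -0.85 ± 0.108, adjusted p = 0.000407). Kcnj4 rose, with a log2(fold change) of 0.34 (adjusted p = 0.0159), a call just lost without nontransgenic mouse 1 (adjusted p = 0.0513). Per length, Kcnj4 stood at 1107 normalized counts per kb in bigenic mice and Kcnj12 at 53.4, so that Kcnj12 was the minor gene of the pair.

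Kcnj10 and Kcnj16 form the Kir channel of astrocytes. Kcnj10, the most abundant Kir gene per length in both groups (1402 normalized counts per kb in bigenic and 1273 in nontransgenic mice), was not called at 0.14 (95% interval -0.17 to 0.45). Kcnj16 fell with a log2(fold change) of -0.43 (adjusted p = 0.0465) but overlapped between groups and was called in 3 of 8 fits with 1 mouse left out, those without bigenic mouse 2 or 3 or nontransgenic mouse 4 (adjusted p up to 0.119 in the others). Of 9 astrocyte marker genes 4 fell and none rose, and their summed normalized counts were 122606 to 143854 in bigenic mice and 152113 to 163404 in nontransgenic mice. Slc1a2, the main glutamate transporter of astrocytes, was called lower at -0.25 and the glycolytic enzyme gene Aldoc was not called at -0.13. The part of astrocyte RNA in the Kcnj16 result was not tested. Kcnj11, the pore of the ATP-sensitive channel, was not called at 0.26 (95% interval 0.01 to 0.52). The sum of the Kir family was 4781 ± 207 per kb in bigenic mice and 3861 ± 205 in nontransgenic mice, with every bigenic mouse higher.

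K2P channels are open at rest and carry the leak current of neurons. Of 7 K2P genes, 4 rose and 1 fell, but Kcnk4, Kcnk10 and Kcnk12 exceeded 10 RPM in no nontransgenic mouse and so could enter the test only as genes that were higher in bigenic mice. Of the 4 K2P genes that exceeded 10 RPM in every mouse, 1 rose and 1 fell. Within the mechanically gated TREK and TRAAK group, Kcnk4 and Kcnk10 were higher and Kcnk2 was lower. The coding windows of these 3 genes, at the second filter of the subunit, are given in the same form as above.
Kcnk4, minus strand, exon 5, chr19:7002112-7002141: ctcaccACTGTAGGCTTTGGCgattatgta
Kcnk10, minus strand, exon 5, chr12:99678806-99678835: ctgaccACAGTAGGCTTTGGTgattttgtg
Kcnk2, minus strand, exon 5, chr1:191080451-191080480: ctgacgACCATTGGATTTGGAgactacgtg
Kcnk4 and Kcnk10, which rose, shared 25 of 30 bases with each other and 20 and 21 with Kcnk2, which fell.

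Kcnk4 was 266, 449, 388 and 398 in bigenic mice and 155, 177, 167 and 186 in nontransgenic mice. No bigenic mouse came near the nontransgenic range, and the log2(fold change) was 1.10 ± 0.160 (2.15-fold, adjusted p = 0.000779). Kcnk10 was 164, 244, 227 and 249 in bigenic mice and 131, 89, 76 and 112 in nontransgenic mice. It had the lowest level per length of the annotated genes over all mice, its groups did not overlap, and it rose with a log2(fold change) of 1.12 ± 0.207 (2.17-fold, adjusted p = 0.00275). Kcnk2 fell with a log2(fold change) of -0.56 (adjusted p = 0.0112), also without overlap. It was more abundant per length than Kcnk4 and Kcnk10 in both groups, at 304 normalized counts per kb in bigenic mice against 219 for Kcnk4 and 67.6 for Kcnk10.

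Kcnk3, an acid-sensitive leak channel, was 518, 958, 629 and 719 in bigenic mice and 390, 394, 401 and 473 in nontransgenic mice. All bigenic mice were higher, with the highest value in the mouse that lay apart, and the log2(fold change) was 0.73 ± 0.168 (adjusted p = 0.00787), or 0.58 without that mouse. Kcnk12 rose with a log2(fold change) of 0.82 (adjusted p = 0.0192), with overlap between the groups, and the call was lost with the GC content and length trend removed (adjusted p = 0.0903) and in 3 of 8 fits with 1 mouse left out, those without bigenic mouse 4 or nontransgenic mouse 1 or 2 (adjusted p up to 0.0588). Kcnk1, by far the most abundant K2P gene per length, was at -0.03 (95% interval -0.25 to 0.19). The sum of the family was 2426 ± 190 per kb in bigenic mice and 2354 ± 115 in nontransgenic mice. Within it, Kcnk4 had a share of 4.26% ± 0.510 in nontransgenic and 8.95% ± 1.26 in bigenic mice, and Kcnk2 one of 18.8% ± 0.866 and 12.8% ± 3.61.

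**Figure D3:**
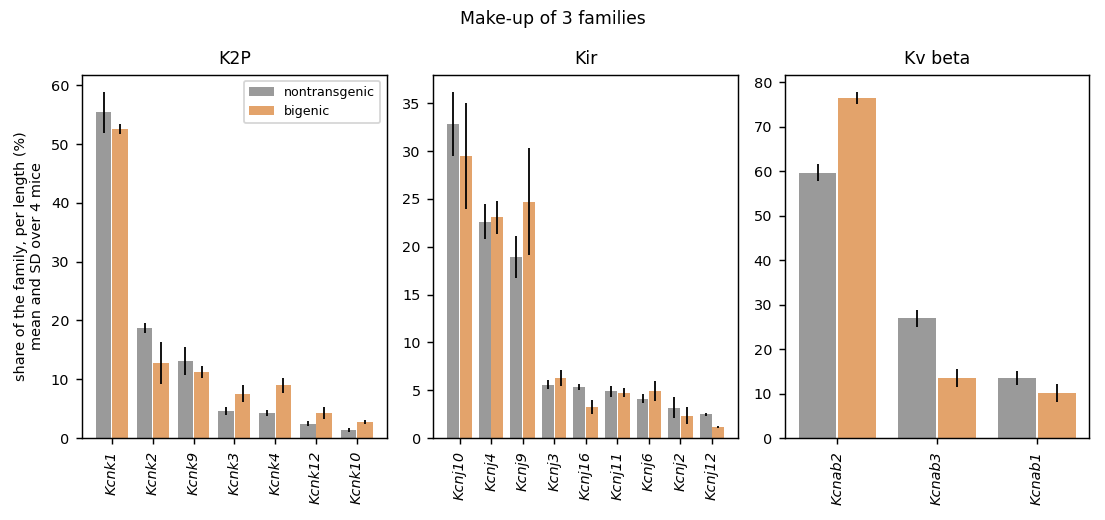
Share of each gene in the summed level of its family (y axis, % of normalized counts per kb of exon) for K2P, Kir and Kv beta genes (x axis); bars are means and lines SDs over 4 mice, grey for nontransgenic and orange for bigenic mice. Kcnk4 stands at 8.95% of K2P in bigenic mice against 4.26% in nontransgenic mice, and Kcnab2 at 76.5% of Kv beta against 59.6%.

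The 13 potassium channel genes not named by the rule used here were not called and had log2(fold changes) from -0.23 to 0.22. The non-coding RNA Kcnq1ot1 was among them, at 2836, 2122, 3493 and 3201 in bigenic mice and 3859, 3422, 2905 and 3297 in nontransgenic mice. Its groups overlapped.

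Leaving out the bigenic mouse that lay apart changed which genes were called. Kcna4 was lost, and Kcnab1, Kcnd3, Kcnh3, Kcnh7, Kcnt1 and Kcnh1 were gained, to give 18 genes called higher and 17 lower (25.3% and 20.3% of all genes). Across the 8 fits that each left out 1 mouse, 21 of the 30 genes were called every time and no called gene changed sign.

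**Figure D4:**
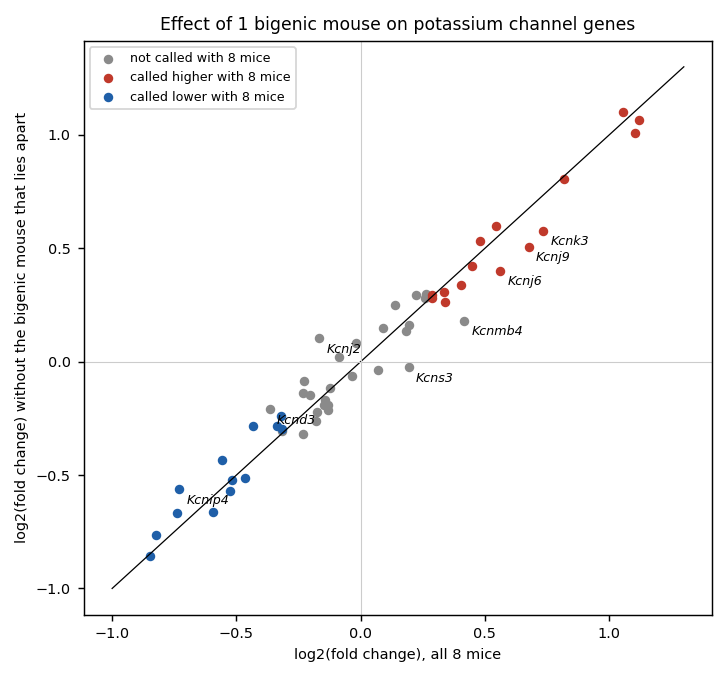
Log2(fold change) of 55 of the 58 potassium channel genes with all 8 mice (x axis) against the value without the bigenic mouse that lay apart (y axis); the line marks equal values, and genes that moved by more than 0.15 are named. Kcnmb4 moved from 0.42 to 0.18 and Kcnk3 from 0.73 to 0.58, while no called gene drawn crossed 0.

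The pore-forming genes were also compared by sequence. The selectivity filter code was taken as threonine or serine, any residue, glycine, tyrosine or phenylalanine, and glycine. All 49 held a match to it in their longest annotated coding transcript, 43 of them at 1 place and 6 at 2 places. Those 6 were all K2P genes, which carry a pair of pore loops per subunit. Kcnk1, the other of the 7 K2P genes, matched at 1 place only. None of the 8 auxiliary genes held a match, beside 2.51% of 22315 coding genes. Of the 49 pore-forming genes 16 rose and 11 fell, and of the 8 auxiliary genes 1 rose and 2 fell. Over all genes tested 20.5% rose and 15.4% fell. Whether pore-forming and auxiliary genes differed was not tested. Potassium channel genes were long, with a median of 48.6 kb from start to end against 28.3 kb for all genes tested, and runs of at least 20 TG repeats, the repeat that TDP-43 is known to bind as UG in RNA, lay within 63.2% of them against 43.9%. Per length the hexamer GTGTGT was not more frequent in them, with a median of 1.49 per kb of gene against 1.57 and of 0.313 per kb of exon against 0.424. Such runs were present in 58.8% of the potassium channel genes that rose, 61.5% of those that fell and 66.7% of those not called. Over all genes tested these shares were 42.1%, 51.2% and 42.8%. The median GC content of the exons was 53.2% against 49.6% for all genes. It was 56.3% in potassium channel genes that rose and 51.4% in those that fell. Over all genes tested it was likewise higher in genes that rose (51.51%) than in genes that fell (47.65%).

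Proteins that bind, deliver or regulate potassium channels, or that transport potassium, were read from 4 lists. Of the 47 genes tested 9 rose and 11 fell, beside the 20.5% and 15.4% of all genes given above, with a median log2(fold change) of -0.08. Among the axonal partners of Kv1 and Kv7 channels, Ank3, which encodes the ankyrin that anchors Kv7 channels at the axon initial segment, rose with a log2(fold change) of 0.71, and Cntnap1, which encodes a paranodal adhesion protein, rose with 0.59. The scaffold gene Dlg1 (-0.54) and Lgi1 (-0.63), whose secreted product acts on Kv1 channels, fell. This list held 2 genes that rose, 4 that fell and 11 that were not called. Among the partners of Kv4 and Kv2 channels, Dpp10, an auxiliary subunit of Kv4, fell with a log2(fold change) of -0.76 from 5972, 4974, 5408 and 5205 in nontransgenic mice to 3001, 2767, 3623 and 3380 in bigenic mice. The groups were far apart. Dpp6, the other Kv4 auxiliary subunit of this kind, was not called at 0.23 (adjusted p = 0.0617), although every bigenic mouse was above every nontransgenic mouse and it was called without the mouse that lay apart (0.16, adjusted p = 0.0497). Vapb fell with -0.36 and Amigo1, a Kv2 auxiliary subunit, rose with 0.29.

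Calmodulin is the calcium sensor of SK and Kv7 channels, and its gene Calm3 rose with a log2(fold change) of 0.62. Abcc8, the sulfonylurea receptor that pairs with Kcnj11, rose with 0.66, and Lrrc55, an auxiliary subunit of BK channels, rose with 0.66. In that list 3 genes rose, 2 fell and 7 were not called. Among genes of potassium transport 3 rose, 3 fell and 7 were not called. The sodium pump modifier Fxyd7 rose with 0.71, while Fxyd6 (-0.60) and the pump subunits Atp1b2 (-0.39) and Atp1b3 (-0.53) fell.

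Markers of the cell types in cortex were read beside these values, and no tested marker was at 0 in any mouse. Of 8 excitatory neuron markers 1 rose and 2 fell, with a summed level of 42619 to 59382 in bigenic mice and 70655 to 77627 in nontransgenic mice. Camk2a was the largest term of this sum and fell with a log2(fold change) of -0.88, and Slc17a7, the vesicular glutamate transporter, was at 0.15 and not called. Of 10 inhibitory neuron transcripts 4 fell and none rose, with sums of 21191 to 22786 against 24376 to 26689. Gad1 fell by 0.19 on the log2 scale. Of 8 microglial markers 5 fell and none rose (4840 to 6379 against 6608 to 7811), among them Csf1r at -0.33. Of 8 oligodendrocyte markers 1 rose and none fell (65228 to 85916 against 65240 to 81841), and Mbp was not called at -0.20. Of 8 endothelial and pericyte markers 1 fell (6296 to 7529 against 7349 to 8423), with Slc2a1 at 0.03 and Slco1a4 at -0.18, neither called. Of 14 choroid plexus markers 6 were tested and 5 rose (14275 to 29482 against 6591 to 8221), with Ttr at 4.34 and Enpp2, which was not called, at 0.34. The part of any of these cell types in the potassium channel results was not tested.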

How the data were processed

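Poly(A)+ RNA from 4 bigenic and 4 nontransgenic right cortices was analysed. Per the submitters' processing notes and the study's methods, the authors used cutadapt, Bowtie 0.12.7 against mm9 with reads kept at single positions, and bedtools to count exons, merged into genes. The deposited signal values are whole numbers scaled per mouse, not raw counts, and how they were scaled is not given in the sources used here. Whole reads could be recovered for only 3 of 8 columns, so tests for raw counts were not run. The second deposited table also held the authors' DESeq2 log2 fold changes, standard errors, p-values, adjusted p-values and q-values, and only its symbols and identifiers were used.

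Genes with at least 10 RPM in at least 1 mouse were transformed as log2(value + 1) and compared with limma 3.58.1 (lmFit, eBayes with a trend, R 4.3.3), with Benjamini-Hochberg adjustment over 10588 genes and a threshold of 0.05. Fold changes are on that log2 scale, which understates those of low genes. The test was checked on data made with known changes. Both groups of those data had the spread of the nontransgenic mice, so the check did not cover a bigenic mouse that lies apart. Column names gave the group but not which mouse of it. The p-values set the difference between the groups against the spread within groups of these 8 samples, which limma moderates over all genes. The depth of each mouse was inferred from the spacing of its low values. Tables were handled in Python 3.11.15 (pandas 2.3.3, numpy 2.4.6, scipy 1.17.1). Positions, exon lengths (all exons of a gene merged) and coding sequence come from GENCODE vM1 on NCBIM37, in which 57 of 58 potassium channel genes were found.

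The genes and all lists were chosen with earlier results of these data known. Some genes and sequences are not reported here. Apart from these, all called potassium channel genes are named, the 16 with the smallest adjusted p-values with every mouse. Of those not called, the 6 with the largest absolute change and the most abundant per length of each family are named, with up to 4 called genes per partner list by adjusted p-value and the 2 most abundant markers per cell type. Kcnh7, Kcnh1, Kcnq1ot1, Dpp6 and the neighbouring gene Kcnj2 were named after their values were seen. Alternatives were pseudocounts of 10 and 0.1, no filter, a filter in every mouse, equal totals, quantile normalization, array weights, subtraction from each mouse of a quadratic fit on GC content and exon length, stricter thresholds, and leaving out each mouse.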

Additional observations from a re-analysis of the deposited data

Results flagged for a closer look

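For each of the 58 potassium channel genes the 4 mice of each group were checked for a value far from the other 3, by the gap to its nearest neighbour relative to the range of the group (critical value 0.829). Of 116 groups 10 were flagged, and chance flags about 1 in 20. Among bigenic mice, the lowest values of Kcna2 (2312, next 2731) and Kcnc4 (751, next 967) both belonged to the first mouse, as did the highest of Kcnab1 (2412, next 1925). The bigenic mouse that lay apart gave 3 of the flags, with the lowest Kcnip1 (316, next 395), the highest Kcnmb4 (3274, next 1778) and the highest Kcns3 (428, next 238). Among nontransgenic mice the flagged values were the highest Kcnk3 (473, next 401) and Kcnh5 (1215, next 1010) and the lowest Kcnn3 (600, next 717) and Kcnmb4 (1353, next 1538). Kcna2, Kcnc4 and Kcnk3 were called in every fit that left out 1 mouse, whereas Kcnn3 and Kcnip1 were called in 4 and 2 of 8.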

How the results depend on the processing

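No paired analysis was possible because the columns carry no replicate numbers. Of the 17 genes called higher and 13 called lower, 10 and 7 remained past an adjusted p of 0.01, and 7 and 5 at a change of at least 1.5-fold, where the partner genes called went from 20 to 10. With array weights, which gave the bigenic mouse that lay apart a weight of 0.084, 20 genes were called lower and 23 higher. Leaving out each mouse in turn gave 14 to 18 genes higher, 9 to 17 lower and 16 to 26 partner genes, and a median log2(fold change) of the potassium channel genes from -0.057 to 0.019. With the GC content and length trend removed that median was -0.063, with 15 genes called higher and 17 lower, against 17 and 13 without this step. Pseudocounts, filters, equal totals and quantile normalization kept both counts within 1.5 times, and the causes of these differences were not tested. Shares of all genes are given only for the main test, the filter in every mouse and the fit without the mouse that lay apart. Counts from the other settings have no such background, so whether they differ from those of all genes was not tested. Only genes that were not called reversed. With array weights Kcna1 was at 0.10. Leaving out 1 mouse gave -0.0745 to 0.0831 for Kcna1, -0.11 to 0.0195 for Kcnk1 and -0.0375 to 0.13 for Kcnq3. The lowest value of any of these genes in any mouse was 76 normalized counts. They had all passed a threshold on read number, however, so whether depth limited the detection of other potassium channel genes was not tested. With 4 mice per group, 95% intervals were as wide as -0.88 to 0.55 for Kcnj2.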

Other observations

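Some potassium channel genes are neighbours on a chromosome, and neighbours did not always have like values. Kcnj9 and Kcnj10 lie 11.95 kb apart on mouse chromosome 1, and Kcnj9 rose with a log2(fold change) of 0.68 while Kcnj10 was at 0.14 and not called. Kcna2 and Kcnc4 lie 331 kb apart on chromosome 3, and Kcna2 rose (0.45) while Kcnc4 fell (-0.47). Kcna6 rose (0.34) and Kcna1, 62.5 kb away on chromosome 6, was at -0.02 and not called. Kcnj16 fell (-0.43) and Kcnj2, 38.2 kb away on chromosome 11, was at -0.17 and not called. Kcnc1 rose (0.29) and Kcnj11, 296 kb away on chromosome 7, was at 0.26 and not called. Differences between neighbours were not tested.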
